A study of Rattus norvegicus with 4 samples.

Results

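Fatty acid oxidation and peroxisome genes were described in NR8383, a line of alveolar macrophages that was set up from rat lung lavage. The members were chosen by name: every gene probe whose accession led through RefSeq to a rat symbol of the acyl-CoA dehydrogenase, acyl-CoA oxidase, long-chain acyl-CoA synthetase, carnitine palmitoyltransferase, hydroxyacyl-CoA dehydrogenase, acyl-CoA thioesterase, enoyl-CoA hydratase or peroxin families, or to one of 13 further enzymes of the same pathways. This gave 83 probes for 70 genes, out of 21109 named probes for 16581 named genes. A further 6 symbols that meet the rule, among them Acad8 and Acad10, had no named probe and were not analysed here. The series holds 1 group of 4 samples, which the design text calls biological replicates: cells after 20 passages, grown for 48 h after seeding (flasks of 25 cm2) and then held 4 h in the water control that the labels tag ALI, an abbreviation they do not spell out. The labels' protocols also give 15% serum and an RNA integrity number above 7.5 for all 4 samples. With 1 group no comparison between conditions was possible. The questions were therefore which members gave a signal in these cells and how far each differed between the replicates.

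Cells burn fatty acids in a fixed sequence. A synthetase joins the fatty acid to coenzyme A, the carnitine shuttle carries long chains into the mitochondrion, and repeated rounds of dehydrogenation, hydration, a second dehydrogenation and thiolytic cleavage release acetyl-CoA. Peroxisomes run a parallel set of enzymes for very long and branched chains, in which the first step makes hydrogen peroxide, and peroxins build these organelles and import their enzymes. Fatty acid oxidation is a known fuel route of alveolar macrophages, which take up and clear surfactant lipid in the lung.

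Most members were detected. The call of detection asked for 1 probe or more with a signal well over background in 4 of 4 samples. Of the 70 members 56 (80.0%) were detected, 1 was partly detected and 13 gave no signal well over background in any sample. The corresponding shares of the 16581 named genes were 51.0%, 6.43% and 42.6%. Several enzyme groups were detected in full, 26 of 26 genes. These were the shuttle, the acyl-CoA dehydrogenases, the electron transfer flavoprotein, the mitochondrial hydratase and thiolase steps and the auxiliary isomerases and reductases. The undetected members were 6 thioesterases, 2 acyl-CoA oxidases, 3 peroxins, Acsl6 and Echdc2.

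The samples gave arrays of similar quality. The signal at the 75th percentile of the gene spots was an intensity between 831 and 1237, 49.2% to 50.3% of these spots passed the background flag, and 0 were saturated. Of 10 macrophage markers 10 were detected, among them Cd68 and Spi1. Of 14 markers for other cell types of lung and blood, 0 were detected and 13 passed the flag in no sample. Each level is given as the log2 signal minus that of the array's 75th percentile, so 0 stands for that percentile, as mean ± SD over 4 arrays. Probes differ in affinity, so a level serves to follow 1 probe across the replicates and not to rank genes. The number of arrays limits the precision.

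**Figure D1:**
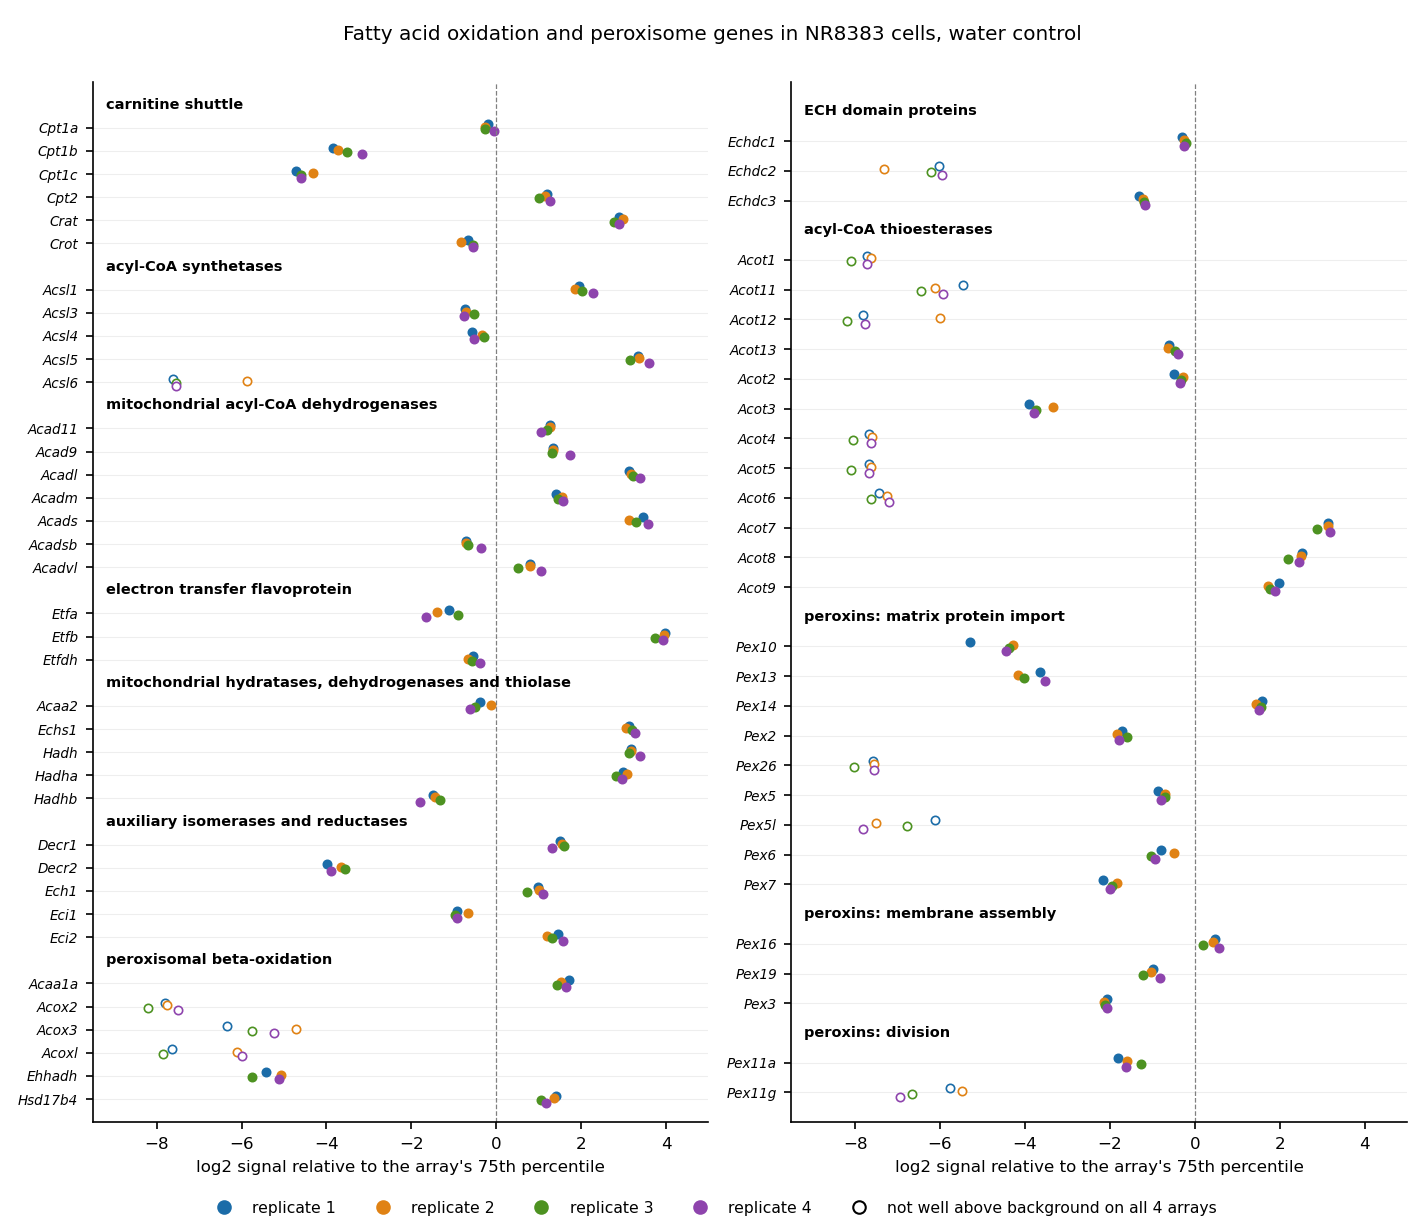
Log2 level above the 75th percentile (horizontal axis, dashed line at 0) for 66 members by role, 1 point per replicate. Filled points mark 52 detected genes, and open points, mostly below -5, mark the 14 genes that were not above background on all 4 arrays; positions of different genes are not comparable because each has its own probe.

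The promoters of the neighbouring thioesterase genes are shown first, because detection differed between members of this gene cluster, and that of Hadha because it faces the partner gene Hadhb. In the RefSeq table of the assembly GRCr8 the genes Acot2, Acot1, Acot4, Acot3, Acot5 and Acot6 follow each other in this order, with other loci between some of them. Acot2 and Acot3 were detected and Acot1, Acot4, Acot5 and Acot6 were not. Each window below holds the 250 bases before the RefSeq start (GRCr8, read 5′ to 3′ on the strand of the gene). They lie at chr6:109342590-109342839, chr6:109413447-109413696, chr6:109367024-109367273, chr6:109399604-109399853, chr6:109432812-109433061 and chr6:31907551-31907800, all on the + strand. Capitals mark, on either strand, the CCAAT box, the GC box with the letters GGGCGG, the TATA box with the letters TATAAA, and the nuclear receptor half-site with the letters AGGTCA. The promoter table used here has no entry for Acot6.
Acot2: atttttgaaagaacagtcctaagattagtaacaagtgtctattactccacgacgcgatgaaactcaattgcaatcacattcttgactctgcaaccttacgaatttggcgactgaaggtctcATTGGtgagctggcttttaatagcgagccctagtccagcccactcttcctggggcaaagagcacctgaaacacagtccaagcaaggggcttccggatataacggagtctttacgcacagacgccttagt
Acot3: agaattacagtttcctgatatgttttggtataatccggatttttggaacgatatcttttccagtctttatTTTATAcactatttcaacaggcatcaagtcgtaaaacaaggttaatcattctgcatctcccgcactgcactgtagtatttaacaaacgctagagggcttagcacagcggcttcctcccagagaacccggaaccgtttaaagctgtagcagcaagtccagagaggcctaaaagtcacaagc
Acot1: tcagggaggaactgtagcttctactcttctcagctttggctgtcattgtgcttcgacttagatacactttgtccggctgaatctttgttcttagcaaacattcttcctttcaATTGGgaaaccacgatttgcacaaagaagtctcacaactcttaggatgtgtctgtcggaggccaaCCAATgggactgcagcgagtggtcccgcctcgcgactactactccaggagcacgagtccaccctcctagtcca
Acot4: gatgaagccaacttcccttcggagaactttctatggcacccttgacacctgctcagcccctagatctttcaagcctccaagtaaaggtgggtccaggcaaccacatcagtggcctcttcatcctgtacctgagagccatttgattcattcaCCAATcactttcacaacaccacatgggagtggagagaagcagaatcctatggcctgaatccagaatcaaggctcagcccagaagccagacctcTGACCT
Acot5: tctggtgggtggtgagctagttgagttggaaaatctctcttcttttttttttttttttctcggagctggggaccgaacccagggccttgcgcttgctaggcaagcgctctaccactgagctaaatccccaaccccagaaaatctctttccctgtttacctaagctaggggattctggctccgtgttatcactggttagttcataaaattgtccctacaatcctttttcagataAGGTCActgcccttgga
Hadha: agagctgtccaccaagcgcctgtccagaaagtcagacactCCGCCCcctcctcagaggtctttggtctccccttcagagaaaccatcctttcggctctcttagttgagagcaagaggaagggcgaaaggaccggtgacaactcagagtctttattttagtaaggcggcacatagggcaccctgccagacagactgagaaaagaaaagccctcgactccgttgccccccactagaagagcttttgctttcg

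Of these windows Acot2 held 1 CCAAT box and Acot3 held 1 TATA box, while Acot1 held 2 CCAAT boxes, Acot4 held 1 CCAAT box and 1 half-site, and Acot5 held 1 half-site. The half-site of nuclear receptors such as the PPARs stood in the windows of Acot4 and Acot5. It was absent from the window of Acot1, also undetected, and from those of Acot2 and Acot3. A link of this site to detection was not tested. The window of Hadha held 1 GC box and shared 200 bases with the window of Hadhb, which reads the other strand; the starts of both genes lie 301 bases apart. Hadha and Hadhb encode the subunits of the mitochondrial trifunctional protein, and both were detected.

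Across the 56 members with a promoter entry, the GC box stood in 39 (69.6%), against 45.3% of the 13555 windows of all named genes. The CCAAT box stood in 20 members (35.7%, against 35.2% of all), the half-site in 12 (21.4%, against 11.9%) and the TATA box in 5 (8.93%, against 11.6%). The site of NRF1, a regulator of mitochondrial genes, searched as GCGC followed after any 1 base by TGCGC, stood in 7 (12.5%, against 6.43%). A pair of half-sites in the same direction with 1 base between, the form that PPAR and RXR bind together, stood in 0 member windows and in 5 of all; each such pair also counts as a half-site. Each motif was searched on both strands. The half-site stood in 7 of 44 detected and in 5 of 11 undetected members. The GC box stood in 33 and 6 of these, and the NRF1 site in 5 and 2. The shares of all named genes were not split by detection, so the excess among members was not separated from their higher detection. A match is a description of the letters, and their absence says only that these 250 bases lack them. The CG dinucleotide occurred a median of 13.5 times in the windows of 44 detected members and 9 times in those of 11 undetected members. Among all named genes the medians were 16 for detected and 5 for undetected genes.

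Regulators of fatty acid oxidation known from other tissues were listed too, transcription factors as well as enzymes. Of these 16 genes 11 were detected, and the first in the list were Ppard, a PPAR found in most tissues (-4.97 ± 0.39), Pparg, the PPAR of lipid-storing cells and alveolar macrophages (4.10 ± 0.17), Ppargc1b, a coactivator of mitochondrial genes (-2.90 ± 0.16), Esrra, a nuclear receptor of energy metabolism (2.93 ± 0.04), Rxra, a PPAR partner (-3.37 ± 0.35), and Rxrb (-0.76 ± 0.24; n = 4 each). The detected share of this list was 68.8%, against 51.0% of all named genes. The regulators with no array above background were Ppara, the PPAR of the liver response to fasting, the coactivator Ppargc1a, the kinase subunit Prkaa2, the carboxylase Acacb and the kinase Pdk4.

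Acyl-CoA synthetases activate fatty acids, and 4 of 5 were detected (80%, against 51.0% of all named genes). Acsl1, the main form of fat and muscle, was at 1.94, 1.85, 2.01 and 2.27 on replicates 1 to 4 (2.02 ± 0.18). Acsl5, a mitochondrial and endoplasmic reticulum form, was at 3.35, 3.36, 3.15 and 3.60 (3.36 ± 0.18). Both were highest on replicate 4, as were 37.8% of all tested genes. Acsl3, a form of the endoplasmic reticulum and lipid droplets, was at -0.73, -0.71, -0.53 and -0.75 (-0.68 ± 0.10), and Acsl4, which prefers arachidonic acid, was at -0.57, -0.34, -0.28 and -0.52 (-0.42 ± 0.14). These 2 forms were highest on replicate 3. Acsl6, the form of brain, was not above background with either of its 2 probes.

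The carnitine shuttle was detected in full, with all 3 forms of carnitine palmitoyltransferase I. Cpt1a, the liver form and the rate-controlling step of mitochondrial fatty acid oxidation, was at -0.19, -0.25, -0.27 and -0.05 on replicates 1 to 4 (-0.19 ± 0.10). Cpt1b, the muscle form, was at -3.84, -3.73, -3.52 and -3.17 (-3.57 ± 0.30). Cpt1c, the brain form of the endoplasmic reticulum, was at -4.71, -4.32, -4.61 and -4.60 (-4.56 ± 0.17). With normexp background correction of the median signal, which lifts dim probes, Cpt1b was at -2.76 and Cpt1c at -3.26. The Cpt1b probe had the wider spread of the 3 and stood highest on replicate 4. Cpt2, which returns the chain to coenzyme A inside the mitochondrion, was at 1.20, 1.16, 1.01 and 1.26 (1.16 ± 0.11). Crat, the short-chain carnitine acetyltransferase, was at 2.89, 2.98, 2.77 and 2.89 (2.88 ± 0.09), and Crot, the peroxisomal octanoyl form, was at -0.66, -0.82, -0.55 and -0.56 (-0.65 ± 0.13). From the lowest to the highest replicate Cpt1b spanned 0.67 on the log2 scale, the widest of the 6.

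Upstream of these steps, 7 of 10 genes of fatty acid entry were detected (70%, against 51.0% of all named genes). They included Slc25a20, the carnitine carrier of the inner mitochondrial membrane (0.52 ± 0.12), the transport proteins Slc27a1 (0.86 ± 0.21) and Slc27a4 (-1.66 ± 0.12), the scavenger receptor Cd36 (4.58 ± 0.35), and the binding proteins Fabp4 (1.32 ± 0.18) and Fabp5 (5.66 ± 0.01; n = 4 each). The carnitine importer Slc22a5, Slc27a3 and Fabp3 were above background on no array.

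The acyl-CoA dehydrogenase family includes the enzymes of the first step of each mitochondrial round, and 7 of 7 genes were detected. Acadvl, for very long chains, was at 0.80, 0.80, 0.52 and 1.05 on replicates 1 to 4 (0.79 ± 0.22). Acadl, for long chains, was at 3.14, 3.18, 3.22 and 3.38 (3.23 ± 0.11). Acadm, for medium chains, was at 1.40, 1.56, 1.47 and 1.58 (1.50 ± 0.08). Acads, for short chains, was at 3.45, 3.12, 3.29 and 3.57 (3.36 ± 0.20). All 4 chain-length forms were highest on replicate 4, as were 37.8% of all tested genes, and Acadm only by 1.58 against 1.56 on replicate 2. The lowest was replicate 1 for Acadl and Acadm, replicate 2 for Acads and replicate 3 for Acadvl. Acad9, which also helps assemble respiratory complex I, was at 1.34, 1.33, 1.32 and 1.73 (1.43 ± 0.20). Its replicate 4 stood apart from the others. Acad11 was at 1.20 ± 0.10, and Acadsb, a branched-chain form of isoleucine breakdown, was at -0.61 ± 0.17.

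The electron transfer flavoprotein takes up the electrons of these enzymes and was detected in all 3 parts. Its alpha subunit Etfa was at -1.11, -1.39, -0.89 and -1.65 on replicates 1 to 4 (-1.26 ± 0.33). The beta subunit Etfb was at 3.99, 3.96, 3.74 and 3.93 (3.90 ± 0.11), and Etfdh, which passes the electrons on to ubiquinone, was at -0.54, -0.66, -0.57 and -0.38 (-0.54 ± 0.12). In these scaled levels Etfa was highest on replicate 3, where Etfb was lowest, and Etfa was lowest on replicate 4. Before scaling, the intensities of both were highest on replicate 3 (666 and 16470) and lowest on replicate 4 (266 and 12668). Whether the subunits vary together was not tested.

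The later mitochondrial steps were detected for 5 of 5 genes. Hadha, the alpha subunit of the trifunctional protein, was at 3.00, 3.07, 2.81 and 2.96 on replicates 1 to 4 by its brightest probe (2.96 ± 0.11). Hadhb, the beta subunit with the thiolase activity, was at -1.50, -1.44, -1.33 and -1.80 (-1.52 ± 0.20). After scaling, replicate 3 was the lowest for Hadha and the highest for Hadhb, while before scaling the intensities of both were highest there. Hadh, the short-chain hydroxyacyl-CoA dehydrogenase, was at 3.19, 3.17, 3.12 and 3.39 (3.21 ± 0.12), and Acaa2, the mitochondrial thiolase, was at -0.37, -0.11, -0.51 and -0.62 (-0.40 ± 0.22). Hadh was highest on replicate 4, on which Acaa2 was lowest. Echs1, the short-chain enoyl-CoA hydratase, was at 3.17 ± 0.09.

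Unsaturated chains need auxiliary enzymes, and 5 of 5 were detected. The isomerases Eci1 and Eci2 were at -0.87 ± 0.14 and 1.38 ± 0.16, the dienoyl-CoA reductases Decr1 and Decr2 of mitochondria and peroxisomes at 1.49 ± 0.13 and -3.78 ± 0.20 (Decr2 at -2.92 with normexp), and the dienoyl-CoA isomerase Ech1 at 0.96 ± 0.16. Of the 3 ECH domain proteins, Echdc1, which clears ethylmalonyl-CoA, was at -0.25 ± 0.03 and Echdc3 at -1.22 ± 0.06, and Echdc2 was not above background on any array.

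Peroxisomal beta-oxidation was detected in 4 of 7 genes (57.1%, close to the 51.0% of all named genes). Hsd17b4, a bifunctional enzyme of the middle steps that serves branched chains and bile acid precursors, was at 1.40, 1.35, 1.05 and 1.18 on replicates 1 to 4 (1.24 ± 0.16). Acaa1a, a peroxisomal thiolase, was at 1.72, 1.52, 1.44 and 1.66 by its brighter probe (1.58 ± 0.13). By these probes both genes were lowest on replicate 3, as were 36.7% of all tested genes. The dimmer Acaa1a probe, at -1.83, -1.50, -1.86 and -1.97, was lowest on replicate 4. Ehhadh, the other bifunctional enzyme, was at -5.41, -5.08, -5.76 and -5.11 (-5.34 ± 0.32), with intensities of 20.6 to 27.6 and thus near the limit of detection, and was at -3.37 with normexp. Acox3, the oxidase of branched pristanoyl chains, was partly detected. Its level was -6.35, -4.72, -5.75 and -5.22, and only replicate 2 was well above background. Acox2, the oxidase of bile acid precursors, and Acoxl were not above background on any array.

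The peroxisome list beyond the members had 28 of 39 genes with a named probe detected (71.8%, against 51.0% of all named genes). Among the first were catalase, Cat, which removes the hydrogen peroxide of the oxidases (-0.75 ± 0.23), Scp2, a thiolase and sterol carrier (4.99 ± 0.13), Hacl1, a lyase of alpha-oxidation (0.02 ± 0.08), Amacr, the racemase of branched chains (-2.97 ± 0.16), Acaa1b, a second thiolase (-0.47 ± 0.22), and Pecr, an enoyl-CoA reductase (0.73 ± 0.22; n = 4 each). Not detected were Phyh of alpha-oxidation, Gstk1 and the enzymes Hao1, Hao2, Dao, Uox, Pipox, Agxt and Baat, which are best known from liver and kidney. Abcd4 was above background on 3 arrays and Ddo on 2.

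Acyl-CoA thioesterases, which free the fatty acid from coenzyme A, were detected in 6 of 12 genes. This share of 50% was the lowest of the enzyme groups and close to the 51.0% of all named genes. Acot7, a cytosolic form known from brain, was at 3.09 ± 0.14, Acot8, a peroxisomal form, at 2.42 ± 0.15, Acot9, a mitochondrial form, at 1.84 ± 0.12, and Acot13, a small mitochondria-associated form, at -0.52 ± 0.12. Of the clustered genes shown above, Acot2, the mitochondrial form, was at -0.48, -0.29, -0.32 and -0.34 on replicates 1 to 4 (-0.36 ± 0.09), and Acot3, a form described in mouse peroxisomes, was at -3.90, -3.34, -3.73 and -3.78 (-3.69 ± 0.25; -2.77 with normexp). The clustered genes are close paralogs, and the extent to which their probes share target sequence was not tested. Acot11 and Acot12 were not above background either. Ketone and propionyl-CoA enzymes, which use the products of oxidation, were detected for 6 of 8 genes (75%, against 51.0% of all named genes). Among them were Oxct1 (2.12 ± 0.15), Acat1 (2.98 ± 0.03), Pcca (-1.47 ± 0.16), Pccb (0.05 ± 0.09) and Mcee (-0.84 ± 0.08). Bdh1, a dehydrogenase of ketone bodies, was not detected.

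Peroxins were detected in 14 of 17 genes (82.4%, against 51.0% of all named genes). Pex5, the receptor that brings most enzymes to the peroxisome by a signal at their carboxyl end, was at -0.87, -0.69, -0.69 and -0.80 on replicates 1 to 4 (-0.76 ± 0.09). Pex7, the receptor for the signal at the amino end, which thiolase carries, was at -2.15, -1.84, -1.95 and -2.01 (-1.99 ± 0.13). Both receptors were lowest on replicate 1. Of the docking proteins, Pex14 was at 1.58, 1.45, 1.55 and 1.52 (1.53 ± 0.06) and Pex13 at -3.64, -4.17, -4.02 and -3.54 (-3.84 ± 0.30). Of the ubiquitin ligase subunits that recycle the receptors, Pex2 was at -1.73 ± 0.11 and Pex10 was at -5.30, -4.28, -4.37 and -4.45 (-4.60 ± 0.47). Replicate 1 stood below the others for Pex10, at an intensity of 22.3 near the limit of detection. With normexp Pex10 was at -3.21 and Pex13 at -2.79. Pex6, an ATPase that helps pull the receptors out of the membrane, was at -0.81 ± 0.24. Its membrane anchor Pex26 and the brain protein Pex5l were not above background on any array, each with 1 named probe.

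The peroxins that build the membrane were detected in 3 of 3 genes. Pex3, the membrane anchor, was at -2.07, -2.14, -2.12 and -2.07 on replicates 1 to 4 (-2.10 ± 0.03), and Pex19, the soluble chaperone of membrane proteins, was at -0.98, -1.04, -1.22 and -0.82 by its brightest probe (-1.02 ± 0.17). Pex16 was at 0.42 ± 0.16. Of the division factors, Pex11a, an inducible form, was at -1.80, -1.60, -1.26 and -1.63 (-1.57 ± 0.23). Pex11a was highest on replicate 3. Pex11g was above background on no array.

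Detection of a gene can rest on the probe. Of the 70 members 61 had 1 named probe, so a missing signal there rests on that probe alone. Of the 9 members with several probes 3 had probes that differed in detection, against 19.7% of all 3658 named genes with several. Acadsb was at -0.70, -0.72, -0.67 and -0.36 on replicates 1 to 4 by 1 probe, matched through a predicted transcript, and its other probe was not above background on any array. Echdc3 was at -1.30, -1.22, -1.19 and -1.17 by 1 probe and not above background by the other. For Acot2 the dimmer probe, at -4.91, -4.64, -4.20 and -5.70, was above background on replicates 1 to 3 and not on replicate 4. The 5 probes of Pex19 were all detected, with means of -3.67, -1.74, -2.11, -1.02 and -3.79, and the 3 probes of Hadha with means of 2.96, 2.54 and 0.24. The Hadha probes, matched to 1 transcript, thus lay up to 2.72 apart, and the Pex19 probes, matched to 2 transcripts, up to 2.77. The 2 probes of Acaa1a, matched to 1 transcript, were both detected, with means of 1.58 and -1.79. With the mean of all probes in place of the brightest, Hadha was at 1.91, Pex19 at -2.47, Acot2 at -2.61, Acadsb at -3.56, Echdc3 at -4.43 and Acaa1a at -0.10.

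**Figure D2:**
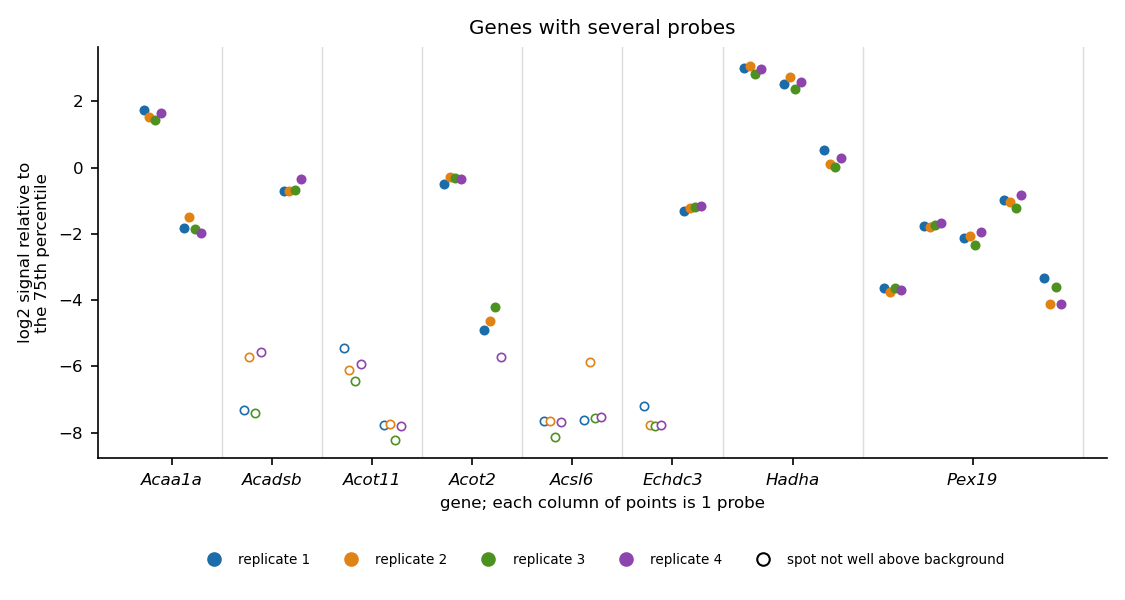
Log2 signal relative to the 75th percentile (vertical axis) of each probe of 8 members with several probes, 1 point per replicate. Open points were not well above background; Acadsb and Echdc3 each had 1 probe detected on 4 arrays and 1 on none.

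The 17 member probes that were never well above background had intensities of 3.72 to 20.7, and the negative control spots of the arrays averaged 4.31 to 4.83. The 64 member probes above background on 4 arrays had intensities of 20.6 to 16470. The dimmest detected gene was Ehhadh, and the brightest undetected ones were Pex11g, at up to 20.7, and Acot11, at up to 20.1.

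Between the replicates the members differed little. The median SD of the 56 detected members was 0.139 on the log2 scale, against 0.144 for all 8455 detected named genes that were tested. None of the 56 passed the limma variance test, in which 0.237% of the 8455 genes had a variance above that of genes of like signal. The smallest adjusted p was 0.766, for Etfa (limma), and 1 member had an unadjusted p under 0.05, against 532 of all genes. The fits without the trend and without robust fitting also called 0 members. A miss of the threshold with 4 arrays does not show that the replicates were alike.

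The 5 detected members with the largest SD were Pex10 (0.47), Etfa (0.33), Ehhadh (0.32), Pex13 (0.30) and Cpt1b (0.30). The 5 with the smallest were Echdc1 (0.03), Pex3 (0.03), Pex14 (0.06), Echdc3 (0.06) and Acadm (0.08). Echdc1 was at -0.29, -0.25, -0.21 and -0.26 on replicates 1 to 4. More than 2-fold between the highest and the lowest replicate was spanned by 1 member, Pex10, against 3.26% of all tested genes. Without replicate 1, or without replicate 2, 0 members did. The intensity of Pex10 on replicate 1 was 22.3, near the limit of detection. The spread followed the signal: the median SD was 0.271 for 8 members with a mean below -3, 0.127 for 24 between -3 and 0, and 0.128 for 24 above 0, while all tested genes gave 0.238, 0.150 and 0.116 in the same ranges.

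**Figure D3:**
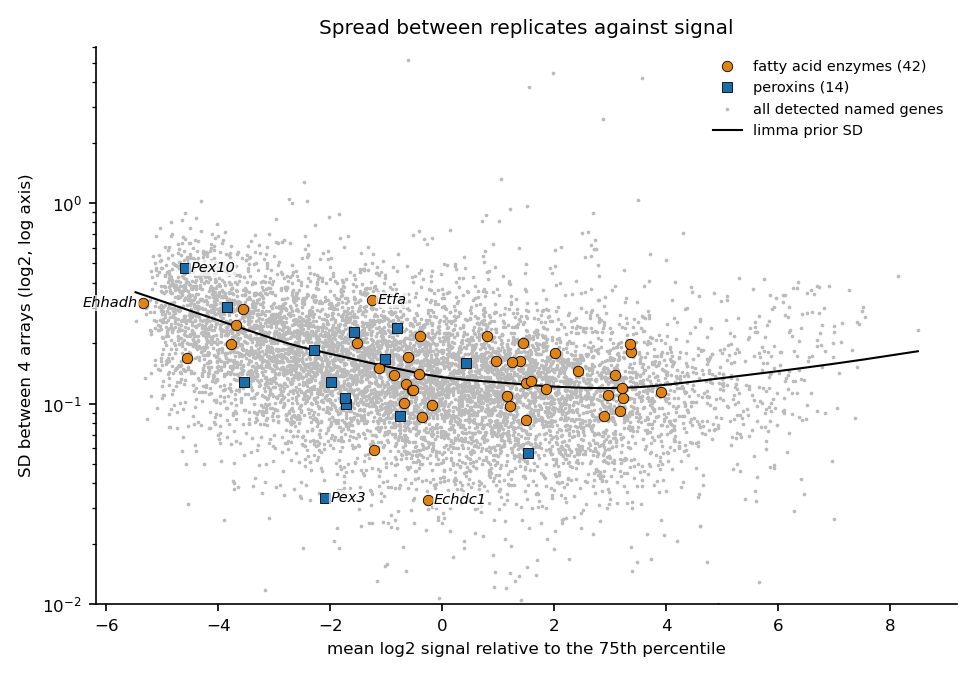
SD between the 4 arrays on a log axis against the mean log2 signal for 42 detected fatty acid enzymes (circles), 14 detected peroxins (squares) and all 8455 tested genes (grey), with limma's prior SD as a line. Pex10 and Etfa lie above the line and Pex3 and Echdc1 far below it.

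Some probes were printed several times on each array. Acadl, Acads and Hadh had 10 spots each. Acads had an SD between single spots of 0.0724 on average and of 0.198 between arrays. Hadh had 0.0949 between spots and 0.120 between arrays, and Acadl 0.117 between spots and 0.107 between arrays. The value of an array is the mean of these spots, so the SD of single spots and the SD between arrays are not on the same footing and were not compared.

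**Figure D4:**
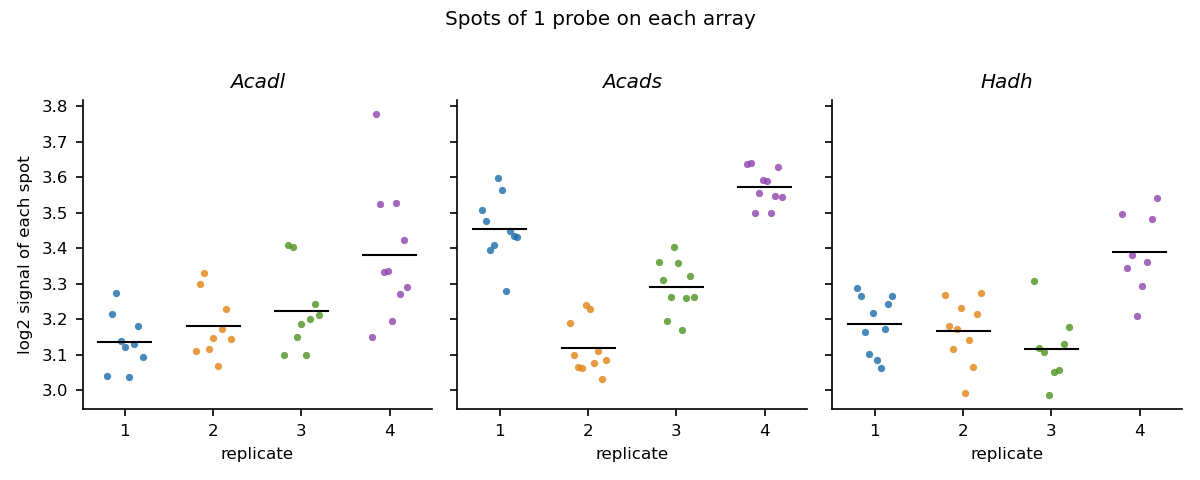
Log2 signal relative to the 75th percentile (vertical axis) of the single spots of the Acadl, Acads and Hadh probes on each replicate, without outlier spots, with the mean of the array as a bar. The Acads spots of replicate 2 lie below all those of replicates 1 and 4.

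The members and all tested genes had nearly the same median on each replicate. The members' median difference from the own mean of each gene was -0.00 on replicate 1, 0.00 on replicate 2, -0.04 on replicate 3 and 0.05 on replicate 4. All tested genes gave -0.02, 0.02, -0.03 and 0.04 on the same replicates. Replicate 4 was the highest for 24 members (42.9%, against 37.8% of all tested genes) and the lowest for 7 (12.5%, against 21.3%). Replicate 3 was the lowest for 20 (35.7%, against 36.7%). The 42 enzymes had a median of -0.06 on replicate 3 and 0.08 on replicate 4, and the 14 peroxins 0.03 and -0.01. The difference between enzymes and peroxins was not tested.

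**Figure D5:**
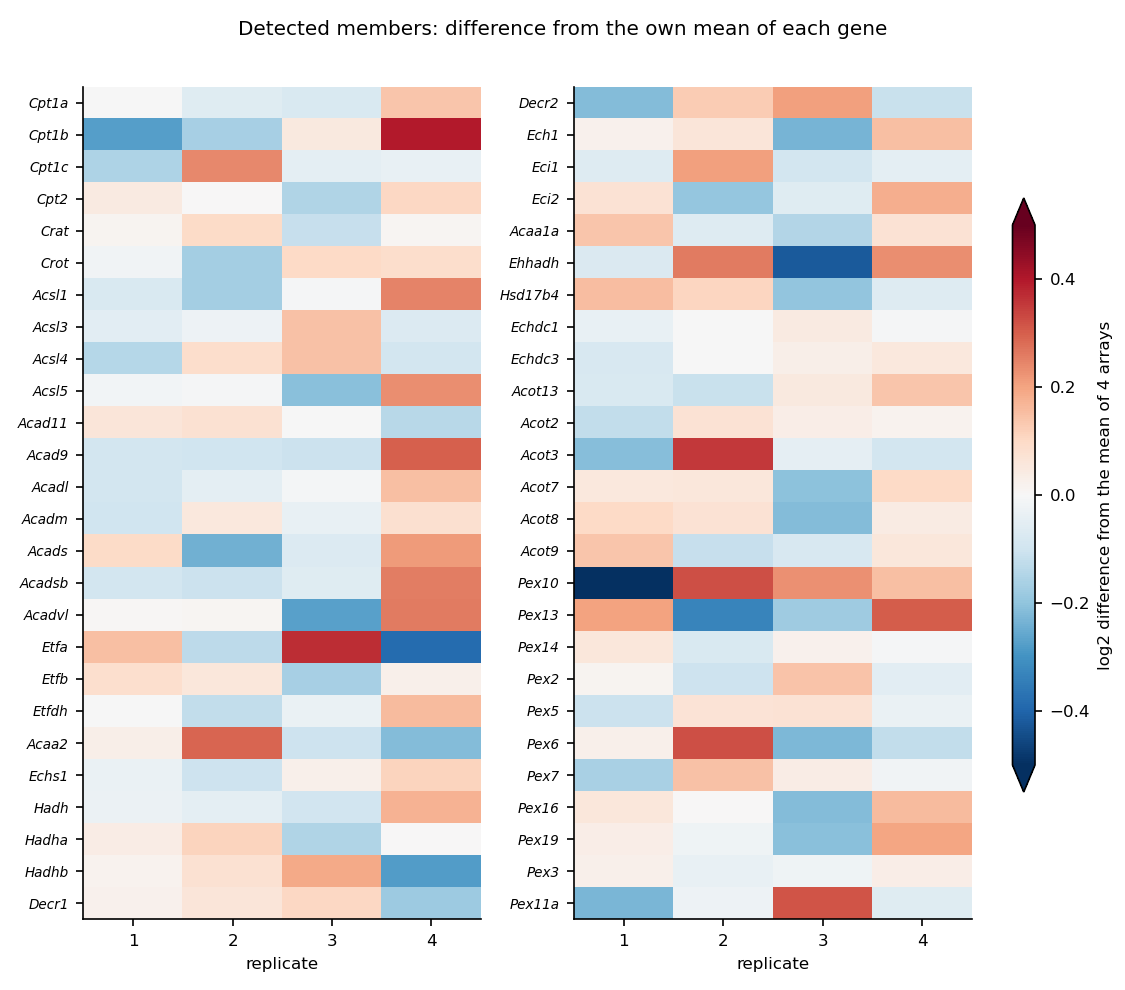
Difference of each replicate from the mean of 4 arrays (log2, colour) for 52 detected members, ordered by role. Replicate 4 is high for the 4 chain-length dehydrogenases and was the highest for 37.8% of all tested genes. Pex10 on replicate 1 stands out.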

How the data were processed

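The labels' protocols give 100 ng of RNA as input for Cy3 labelling, with 1 dye on each Agilent rat array. The deposited spot files came from Feature Extraction 11.0.1.1, per the file headers, and hold linear intensity values (background-subtracted processed signal, median signal, local background) and flags of another kind, with no step between arrays; all 4 arrays lay on 1 slide with 1 scan date. Control spots and spots with an outlier flag were left out, spots of 1 probe were averaged as log2 processed signal, and the array's 75th percentile was subtracted. A probe with several spots counted as above background when more than 50% of them did. A gene took its probe with the highest mean. Accessions were matched without versions to RefSeq's GRCr8 table, for names only, since the array header names rn4; promoter sequences are RefSeq's. Members and lists were chosen with earlier results of these data known. The variance test was an intercept-only limma 3.58.1 fit (R 4.3.3) over all detected genes. Each residual variance was set against the eBayes prior (trend, robust) in an upper-tail F test with Benjamini-Hochberg adjustment at 0.05. Its code was run on data simulated from this same fitted prior, which is no independent check of the calls. Named with each replicate's value were the detected genes of the shuttle, the synthetases and peroxisomal beta-oxidation, fixed key enzymes and peroxins, the 5 largest and smallest SDs, partly detected members, discordant probes and members past a threshold; for Acad9, which was chosen after its values were seen, they were added. Alternatives changed the scaling, background correction, probe rule, filter, detection flag, arrays needed and replicates. Python 3.11.15, numpy 2.4.6, pandas 2.3.3 and matplotlib 3.10.9 were used. Values of some genes are not reported here, but these genes enter the counts and medians.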

Additional observations from a re-analysis of the deposited data

Results flagged for a closer look

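For 6 of 76 genes with values in the text, 1 array lay so far from the other 3 that its gap passed the critical value of Dixon's test, which chance gives in about 1 in 20 groups of 4. Acad9 had 1.73 on replicate 4, with the other replicates between 1.32 and 1.34. On the same replicate Acadsb had -0.36, against -0.72 to -0.67 elsewhere, and Pparg had 4.35, against 3.98 to 4.05 elsewhere. Replicate 2 was high for Eci1, with -0.66 against -0.96 to -0.92 elsewhere. Replicate 3 was low for Acot7, with 2.88 against 3.14 to 3.18 elsewhere, and replicate 1 was low for Pex10, with -5.30 against -4.45 to -4.28 elsewhere. These were 5 of the 53 members tested and 1 of the 23 other genes tested. The share of all detected named genes with such an array was not computed, so these counts do not set the members apart. The far value of Pex10 lay near the limit of detection.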

How the results depend on the processing

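No paired analysis was possible because the series holds 1 group. The count of 56 detected members was 58 with the positive and significant flag (Acot11 and Acox3 added), 59 above the negative controls (Pex11g added to these), 53 when all probes of a gene had to be detected (without Acadsb, Acot2 and Echdc3), and 56 on at least 3 of 4 arrays and without each replicate. The median SD of the members was 0.263 with no scaling, and between 0.126 and 0.153 without 1 replicate. The count of members spanning more than 2-fold was 0 after normexp correction of the median signal, 4 when no scaling was used, 2 with the mean of all probes, 8 with no filter on dim probes, and between 0 and 1 without 1 replicate. The cause was not tested, except that the filter itself removes undetected members. The count of members with high variance in the limma test was 0 under each of the 11 alternatives run, with 0 to 2 members at an unadjusted p under 0.05 and a smallest adjusted p between 0.431 and 0.983. With no scaling the members' median on replicate 3 lay 0.33 above their own means, against 0.34 for all tested genes. Mean levels moved by more than the SD between arrays for 32 of the 56 members with normexp (8 by more than 1.5-fold). With the mean of all probes 7 did so (7 by more than 1.5-fold), and with quantile normalization 0. With no scaling and without any 1 replicate the count was 0, but these 2 results were fixed beforehand. The mean over 4 arrays is unchanged with no scaling, and leaving out 1 of 4 arrays cannot move a mean by its SD. Signal over background limits the calls of Ehhadh, Acox3, Acot11 and Pex11g, whose intensities lay near the limit of detection. Pex10 lay near that limit on replicate 1 (intensity 22.3), a value that enters its span and SD.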
